A study of Homo sapiens with 6 samples.

Results

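Genes of glycolysis and of the response to low oxygen were followed in sorted cells of IGROV1, an established human ovarian carcinoma line. The list held 44 genes, chosen by name for what they encode: glycolytic enzymes, glucose and lactate carriers, regulators of glycolytic flux, the hypoxia-inducible factor (HIF) alpha subunits, and genes that HIF is known to switch on. Of these, 41 were measured by 97 probe sets annotated to a single gene, out of 54675 probe sets and 19775 genes on the array; CA9, SLC16A1 and SLC16A3 were not analysed here. SP cells are the side population, which keeps little of the DNA-binding dye Hoechst 33342 because membrane transporters pump it out, and non-SP cells lie outside that sorting gate. Both groups came from the same line, grown in medium with fetal bovine serum and given no treatment other than the dye and the sort. There were 3 SP samples (SP 1, SP 2 and SP 3) and 3 non-SP samples (non-SP 1, non-SP 2 and non-SP 3), each hybridised to its own array. The labels call them biological replicates and do not state if the cultures were separate, so the p-values rest on a spread between arrays that may be technical in part. Values are levels on the log2 scale, and a difference of 1 is a doubling.

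Glycolysis splits glucose into pyruvate in the cytosol, and lactate dehydrogenase turns pyruvate into lactate when it is not passed to the mitochondria. HIF is a transcription factor made of an alpha subunit, HIF-1 alpha (HIF1A) or HIF-2 alpha (EPAS1), and the partner ARNT. In oxygen the EGLN prolyl hydroxylases mark the alpha subunit for destruction by the VHL ubiquitin ligase, so that alpha subunit protein is set mainly by its breakdown and its mRNA says little about HIF activity. When oxygen is low, HIF binds the core motif ACGTG or GCGTG near its targets, which include most glycolytic enzymes, the glucose carrier SLC2A1, and EGLN1 and EGLN3 themselves. Many carcinoma lines run glycolysis at a high rate in air.

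Promoters of 4 genes on which the results turn are shown because they differ in how many HIF core motifs they hold. Each window runs from 250 bases before to 50 bases after the annotated start, in RefSeq annotation of GRCh38.p14, and reads 5' to 3' on the gene's strand. Capitals mark ACGTG or GCGTG on either strand, which appear as CACGT or CACGC where the motif lies on the other strand. BNIP3 lies at chr10:131981874-131982173 on the minus strand, ALDOC at chr17:28576846-28577145 on the minus strand, SLC2A1 at chr1:42958819-42959118 on the minus strand and KDM3A at chr2:86441121-86441420 on the plus strand.
BNIP3: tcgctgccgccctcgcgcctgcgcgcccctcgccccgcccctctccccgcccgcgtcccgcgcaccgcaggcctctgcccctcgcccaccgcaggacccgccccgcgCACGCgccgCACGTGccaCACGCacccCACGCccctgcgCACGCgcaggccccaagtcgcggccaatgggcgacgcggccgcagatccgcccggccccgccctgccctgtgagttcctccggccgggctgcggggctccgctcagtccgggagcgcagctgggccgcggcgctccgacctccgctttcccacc
ALDOC: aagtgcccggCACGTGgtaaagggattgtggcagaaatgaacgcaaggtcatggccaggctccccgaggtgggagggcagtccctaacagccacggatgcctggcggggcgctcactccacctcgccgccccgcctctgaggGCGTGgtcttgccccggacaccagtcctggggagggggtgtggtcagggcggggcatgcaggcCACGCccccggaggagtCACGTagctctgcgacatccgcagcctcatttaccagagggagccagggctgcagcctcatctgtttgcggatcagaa
SLC2A1: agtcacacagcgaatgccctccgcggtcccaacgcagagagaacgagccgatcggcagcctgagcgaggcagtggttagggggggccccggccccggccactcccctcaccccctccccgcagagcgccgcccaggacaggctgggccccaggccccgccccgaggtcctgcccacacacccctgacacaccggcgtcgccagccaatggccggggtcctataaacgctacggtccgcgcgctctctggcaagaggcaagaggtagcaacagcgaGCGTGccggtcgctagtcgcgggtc
KDM3A: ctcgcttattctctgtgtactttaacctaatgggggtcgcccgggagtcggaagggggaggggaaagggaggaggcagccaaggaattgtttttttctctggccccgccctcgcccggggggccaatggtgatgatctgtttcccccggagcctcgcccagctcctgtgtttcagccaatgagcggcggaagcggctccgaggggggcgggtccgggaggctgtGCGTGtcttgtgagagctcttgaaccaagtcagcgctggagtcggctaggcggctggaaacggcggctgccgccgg
The BNIP3 window held 6 matches, from 143 to 104 bases before the start, and the ALDOC window held 5. The palindrome CACGTG, present in both, counts as 2 overlapping matches. SLC2A1 and KDM3A held 1 match each, the one in SLC2A1 lying 25 bases after the start. Over the list, 37 of the 41 measured genes matched the promoter table, with 66 windows because some genes have several starts; SLC2A3, NDRG1, BNIP3L and ZNF395 were not matched. A match stood in 47 of these 66 windows (71.2%), against 17012 of all 35116 windows of the same length (48.4%). For ACGTG alone the counts were 27 windows (40.9%) against 7518 (21.4%). A match of letters is not a binding site, and the windows leave out enhancers farther away.

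The 6 arrays stood apart in a way the labels do not give. ASNS, which encodes asparagine synthetase and is a target of the amino acid stress factor ATF4, had log2 levels of 12.39 on SP 2, 12.43 on SP 3 and 12.64 on non-SP 2. On the other arrays ASNS was at 9.78 (SP 1), 9.60 (non-SP 1) and 9.90 (non-SP 3). The arrays above and below a level of 11 are called the ASNS-high and ASNS-low arrays here; they were parted by a measured value, are not groups of the study, and are compared only by their values, with no test. Since 2 of the 3 SP arrays and 1 of the 3 non-SP arrays were ASNS-high, a pooled SP difference carries part of the difference between the array sets, and values within each set are given beside it. The control probe sets for ACTB showed a steeper loss of signal towards the 5' end of the transcript on the ASNS-high arrays: the 3' minus 5' difference was 2.48 on SP 2, 2.46 on SP 3 and 2.55 on non-SP 2, against 2.08 on SP 1, 2.02 on non-SP 1 and 2.29 on non-SP 3. The same measure for GAPDH overlapped between the array sets, with 0.04 on SP 2, 0.17 on SP 3 and 0.36 on non-SP 2, against 0.14 on SP 1, 0.15 on non-SP 1 and 0.04 on non-SP 3. Between SP and non-SP arrays the ACTB measure averaged 2.34 and 2.29 (exact permutation test, two-sided, p = 0.9, the smallest p that 3 against 3 arrays allow being 0.1). All 9 markers of the labelled line lay above the negative control probe sets on the 6 arrays. Of these, 7 had a mean above the level of the median gene (6.27), with KRT18 between 10.70 and 11.01 and PAX8 between 10.14 and 10.67. MUC16 and MSLN had means of 5.15 and 5.17, below that level and below the fibroblast marker COL1A1 (7.02) and the endothelial CDH5 (6.55). Of the 9 markers of the line, EPCAM, KRT8 and MSLN were lower on all SP than on all non-SP arrays, as was the endothelial marker VWF. Across the array sets KRT19 and MUC16 were lower on all ASNS-high arrays (gaps of 0.67 and 0.36), and CDH1 and the endothelial CDH5 were higher (gaps of 0.11 and 0.08). The part of these markers in the results was not tested. The leukocyte markers PTPRC and CD3E lay at 3.53 or below, near the negative control probe sets, whose mean per array was 2.82 to 2.96. Of 11 measured markers of other cell types, 2 had a mean above the level of the median gene (6.27), and the 11 summed to 52.08 to 53.11 on SP arrays and 52.37 to 53.83 on non-SP arrays. In bulk RNA, fewer cells of a type and less RNA per cell cannot be told apart.

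Setting SP against non-SP cells asks whether dye-exporting cells differ in these pathways. No gene of the list passed limma's test with Benjamini-Hochberg adjustment over all 19775 genes at 0.05 (0 of 41, smallest adjusted p = 0.467), where 1 gene in all passed (0.00506%), LINC00518, which is not on the list. At an unadjusted p under 0.05 there were 4 of the 41 genes (9.76%), KDM3A and EGLN3 higher and ANGPTL4 and ZNF395 lower in SP cells, against 6.78% of all genes (3.07% higher and 3.71% lower). The groups did not overlap for 3 genes (7.32%), KDM3A and EGLN3 higher and ANGPTL4 lower, against 11.9% of all genes (4.78% higher and 7.1% lower). By the unadjusted p the list's share was somewhat above the background, and by non-overlap it was below, with 4 and 3 genes behind the shares. The median difference, SP minus non-SP, was -0.07 over the 41 genes and -0.02 over all genes, with 13 genes above 0 and 28 below. With the array set, defined above, as a block, 0 of the 41 genes passed, against 0.0253% of all genes (0.0202% lower in SP cells). The plot of differences with their intervals shows every gene.

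**Figure D1:**
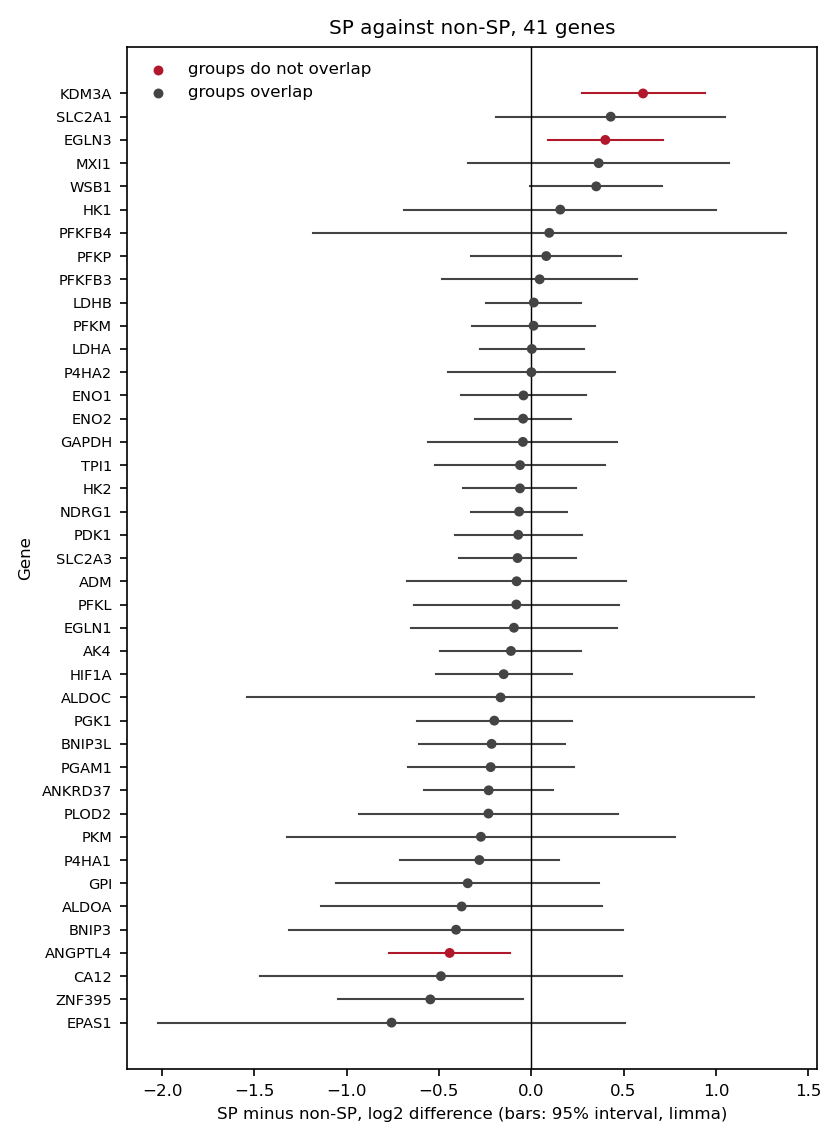
Difference in log2 level, SP minus non-SP, for each of the 41 measured genes (points) with its 95% interval from limma (bars); red marks genes whose 3 SP values and 3 non-SP values do not overlap. KDM3A (0.61) and EGLN3 (0.40) lie to the right of 0 and ANGPTL4 (-0.44) to the left with groups that do not overlap, and ALDOC, PFKFB4 and EPAS1 have the widest bars.

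The gene with the smallest p was KDM3A, a histone H3 lysine 9 demethylase that HIF induces. KDM3A had log2 levels of 8.31, 8.30 and 8.13 on SP 1, SP 2 and SP 3, against 7.64, 7.45 and 7.83 on non-SP 1, non-SP 2 and non-SP 3. The lowest SP array was higher than the highest non-SP array. The difference was 0.61 (SE 0.14), or 1.52-fold with a 95% interval of 1.21 to 1.92 (limma, adjusted p = 0.467). It was 0.76 within the ASNS-high arrays and 0.57 within the ASNS-low arrays. Both had to be positive, because the groups did not overlap. A second KDM3A probe set lay below the negative controls on all 3 non-SP arrays and above them on the 3 SP arrays, so it gives no size for the difference.

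WSB1, a ubiquitin ligase subunit induced by HIF, was measured by 5 probe sets, and all 5 had a higher mean in SP cells. The probe set used for the gene had log2 levels of 10.69, 10.43 and 10.65 on SP 1, SP 2 and SP 3, against 10.24, 10.04 and 10.44 on the non-SP arrays in the same order, and the groups met between SP 2 and non-SP 3. Its difference was 0.35 (SE 0.15, limma adjusted p = 0.733). The other 4 probe sets had groups that did not overlap, where 12.5% of all probe sets do. The largest difference among them was 1.26 (SE 0.23, limma over all probe sets, adjusted p = 0.299), with levels of 9.31, 9.28 and 9.12 on SP arrays and 8.26, 7.47 and 8.22 on non-SP arrays. With the mean of its probe sets WSB1 differed by 0.74 (SE 0.16, limma adjusted p = 0.338), so the size depends on the probe set by more than 1.5 times. Over all 97 probe sets of the list, 14 had SP and non-SP groups that did not overlap, 8 of them higher and 6 lower in SP cells. At an unadjusted p under 0.05 there were 11 of the 97, against 7.31% of all probe sets, and 0 passed the adjusted test, against 0.00183%.

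**Figure D2:**
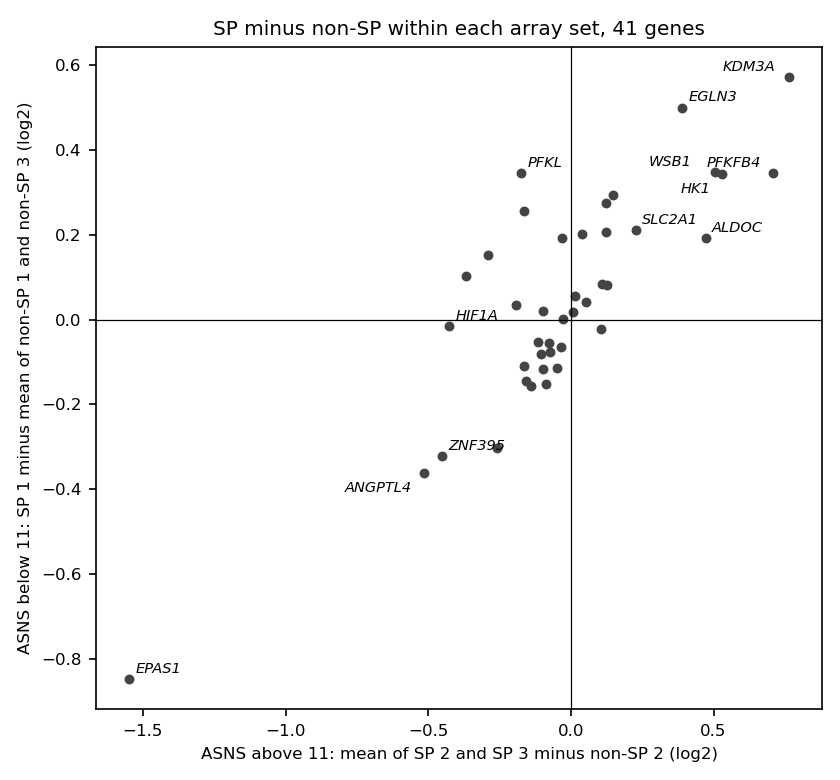
Difference in log2 level, SP minus non-SP, within the ASNS-high arrays (x axis: mean of SP 2 and SP 3 minus non-SP 2) and within the ASNS-low arrays (y axis: SP 1 minus the mean of non-SP 1 and non-SP 3), 1 point per gene. KDM3A (0.76 and 0.57) lies at the upper right and EPAS1 (-1.55 and -0.85) at the lower left, while most genes lie near 0 on both axes.

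Among the HIF alpha subunits, EPAS1 had the lowest difference of the list. EPAS1 had log2 levels of 7.07, 7.77 and 8.32 on SP 1, SP 2 and SP 3, against 7.84, 9.59 and 8.003 on non-SP 1, non-SP 2 and non-SP 3. The groups overlapped through SP 3, and non-SP 2 was the highest array. The difference was -0.76 (SE 0.53, limma adjusted p = 0.883), and it was -0.20 without non-SP 2. Within the array sets it was -1.55 (ASNS-high) and -0.85 (ASNS-low), and with the array set as a block -1.20 (SE 0.23, limma adjusted p = 0.168). A second EPAS1 probe set did not overlap between the groups, with 5.99, 5.83 and 6.35 on SP arrays and 6.98, 7.59 and 6.39 on non-SP arrays. HIF1A had log2 levels of 10.41, 10.37 and 10.45 on SP arrays and 10.35, 10.84 and 10.50 on non-SP arrays. Those groups overlapped, and the HIF1A difference of -0.15 had a 95% interval of -0.52 to 0.22; without non-SP 2 it was -0.0093.

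The prolyl hydroxylases stood on different sides of 0. EGLN3, the isoform most strongly induced by HIF in many cells, had log2 levels of 4.75, 4.43 and 4.69 on SP arrays and 4.30, 4.17 and 4.20 on non-SP arrays. The EGLN3 groups did not overlap, at levels below the median gene, and the difference was 0.40 (SE 0.13, limma adjusted p = 0.619). Its other probe set lay at or below the negative controls on most arrays. EGLN1, the main oxygen sensor, differed by -0.09 (SE 0.23).

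Other HIF targets lay on both sides of 0, 4 above and 11 below among 15 measured, with a median of -0.21. ANGPTL4, a secreted inhibitor of lipoprotein lipase, had log2 levels of 5.48, 5.42 and 5.36 on SP arrays and 6.03, 5.90 and 5.65 on non-SP arrays. All SP values were below all non-SP values, with a difference of -0.44 (SE 0.14, limma adjusted p = 0.612). The second ANGPTL4 probe set differed by -0.28 (SE 0.14) with groups that overlapped, SP 1 (5.44) lying above non-SP 3 (5.42). Both probe sets lay below the level of the median gene. ZNF395, a transcription factor induced by hypoxia, had 9.77, 9.14 and 9.32 on SP arrays and 10.07, 9.68 and 10.12 on non-SP arrays. The ZNF395 groups met between SP 1 and non-SP 2, and the difference was -0.55 (SE 0.21, limma adjusted p = 0.701). The collagen prolyl hydroxylase subunit P4HA1 differed by -0.28 (SE 0.18), the ankyrin repeat gene ANKRD37 by -0.23 (SE 0.15) and the mitophagy receptor BNIP3L by -0.21 (SE 0.17). MXI1, an antagonist of MYC, differed by 0.37 (SE 0.29), and by 0.075 without non-SP 1, whereas P4HA2 differed by 0.00, NDRG1 by -0.07, ADM by -0.08 and the mitochondrial adenylate kinase AK4 by -0.11. Their groups overlapped.

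In the probe set used for each gene, the glycolytic enzymes showed no difference between SP and non-SP cells beyond the spread of the arrays. None of the 15 so read reached an unadjusted p under 0.05 or had groups that did not overlap. Their differences ran from -0.38 for ALDOA to 0.16 for HK1, with a median of -0.06. A second PFKL probe set was lower on all SP than on all non-SP arrays (-0.37, SE 0.17). LDHA, the muscle-type lactate dehydrogenase subunit, had log2 levels of 13.18, 13.07 and 13.04 on SP arrays and 13.07, 13.00 and 13.21 on non-SP arrays. Its difference of 0.00 had a 95% interval of -0.28 to 0.28. LDHB, the heart-type subunit, differed by 0.01 (interval -0.24 to 0.27), and HK2, the inducible hexokinase, by -0.06 (interval -0.37 to 0.24). For ALDOC and PKM the intervals were wide, -1.54 to 1.21 and -1.33 to 0.78, and their values split by array set. PKM, pyruvate kinase, also had a second probe set that differed by 1.03 (SE 0.35, limma over all probe sets, unadjusted p = 0.0232, adjusted p = 0.579). The PKM probe set used differed by -0.27 (SE 0.44). The glucose carrier SLC2A1 differed by 0.43 (SE 0.26, limma adjusted p = 0.858), with 0.23 within the ASNS-high and 0.21 within the ASNS-low arrays. SLC2A3, a glucose carrier typical of neurons, lay between 3.09 and 3.44, close to the negative controls, so its difference says little. The flux regulators PFKFB3, PFKFB4 and PDK1 differed by 0.05, 0.10 and -0.07.

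Across the array sets the list split far more than across the sort. For 26 of the 41 genes (63.4%) the 3 ASNS-high values all lay on 1 side of the 3 ASNS-low values, where 26.9% of all genes did so, and 39.4% of genes above the level of the median gene. Of the 26 genes, 23 were lower and 3 higher on the ASNS-high arrays, while over all genes 13.7% were lower and 13.1% higher. All 26 belonged to the 38 listed genes above the median level, and among all genes above it 19% were lower and 20.3% higher. By probe set the counts were 46 lower and 3 higher of 97, against 12% and 10.9% of all probe sets. The steeper ACTB gradient moved with this split and the GAPDH gradient did not, as given above, and the part of RNA quality in it was not tested.

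**Figure D3:**
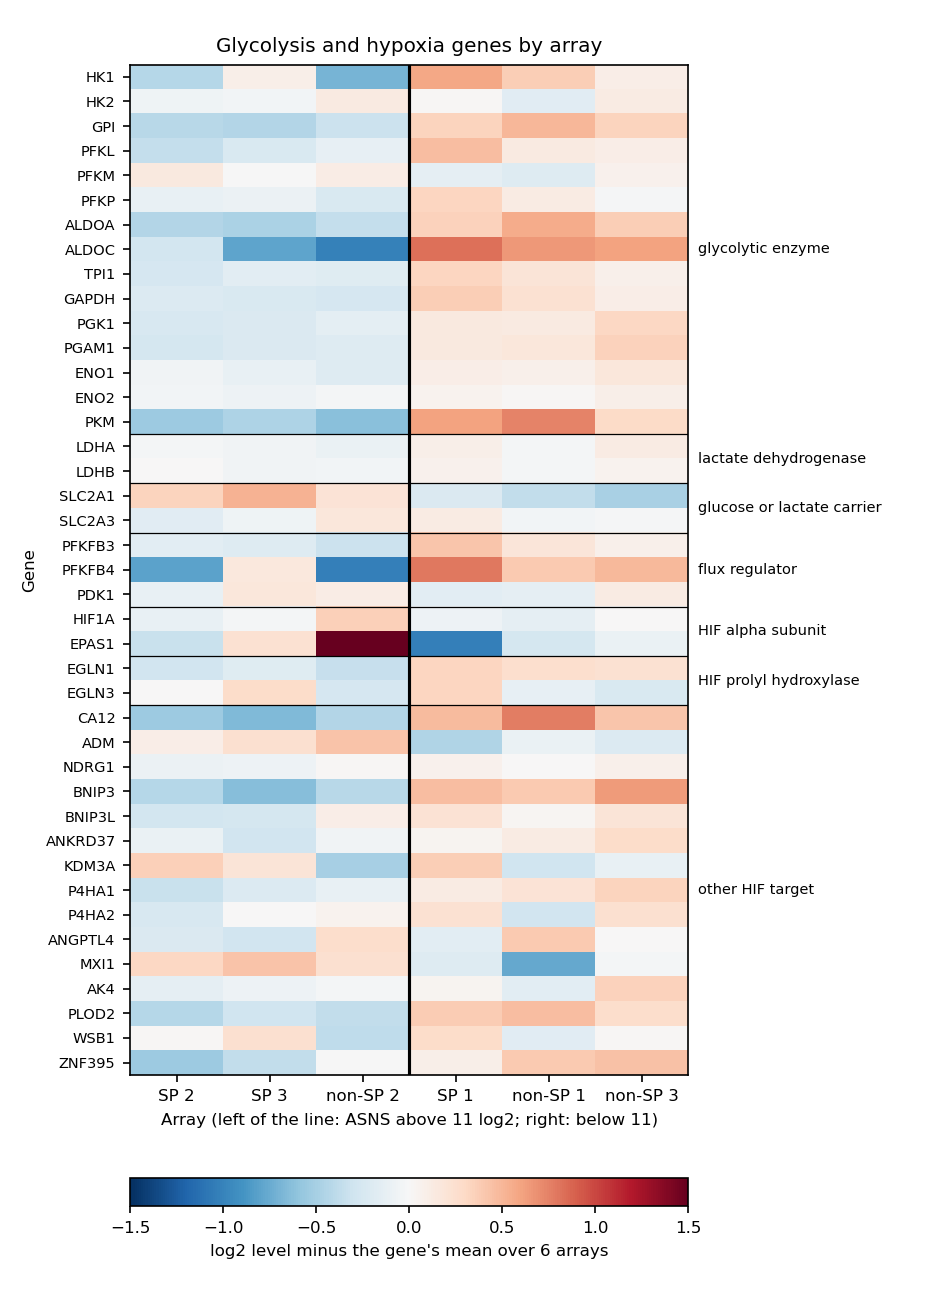
Log2 level of each measured gene minus its mean over the 6 arrays (colour; red higher, blue lower), for 41 genes grouped by role (rows) and 6 arrays (columns), with the ASNS-high arrays left of the line and the ASNS-low arrays right of it. Most glycolytic enzymes are blue on the left and red on the right, SLC2A1, ADM and MXI1 run the other way, and EPAS1 stands out on non-SP 2.

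Among the enzymes, ALDOC, PKM, ALDOA and GPI had the widest gaps. Of the 15 glycolytic enzymes 13 were lower on all ASNS-high arrays and 0 were higher. ALDOC, the brain-type aldolase and a HIF target, had log2 levels of 7.80, 7.28 and 7.07 on SP 2, SP 3 and non-SP 2, against 8.90, 8.73 and 8.68 on SP 1, non-SP 1 and non-SP 3. The nearest values of the array sets were 0.89 apart, or 1.85-fold. PKM had 10.21, 10.29 and 10.12 on the ASNS-high arrays and 11.36, 11.50 and 11.04 on the ASNS-low arrays, a gap of 0.76. The second PKM probe set overlapped between the array sets, with 7.56, 8.20 and 6.37 against 8.05, 7.63 and 6.73 in the same order of arrays. ALDOA, the main aldolase of muscle and most cells, had 10.63, 10.61 and 10.72 against 11.42, 11.63 and 11.45, a gap of 0.71. All 3 ALDOA probe sets split in this way. GPI, glucose-6-phosphate isomerase, had 10.03, 10.01 and 10.12 on the ASNS-high arrays and 10.79, 10.95 and 10.78 on the ASNS-low arrays, a gap of 0.66. In the probe sets used for these 4 enzymes, the SP and non-SP arrays of a set lay closer to each other than to the arrays of the other set.

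The enzymes between aldolase and pyruvate kinase had smaller gaps in the same direction. PGAM1, phosphoglycerate mutase, had log2 levels of 11.70, 11.74 and 11.77 on SP 2, SP 3 and non-SP 2, against 12.11, 12.13 and 12.30 on SP 1, non-SP 1 and non-SP 3. GAPDH, glyceraldehyde-3-phosphate dehydrogenase and a common loading control, had 12.18, 12.16 and 12.13 on the ASNS-high arrays and 12.75, 12.62 and 12.48 on the ASNS-low arrays. The GAPDH gap of 0.30 was seen with all 3 of its probe sets, and the 3', middle and 5' control probe sets for GAPDH were lower on the ASNS-high arrays as well. So were the 3', middle and 5' control probe sets for ACTB, which is not a gene of glycolysis. The middle ACTB probe set had 12.12, 12.19 and 12.04 on the ASNS-high arrays and 12.53, 12.53 and 12.37 on the ASNS-low arrays. PGK1, phosphoglycerate kinase, had a gap of 0.29, and 5 of its 6 probe sets split, while TPI1 had a gap of 0.24. Among the remaining enzymes with array sets that did not overlap, PFKL had a gap of 0.22 and ENO1 of 0.13, PFKP had 0.08 and ENO2 had 0.05. The HK1 gap was under 0.01. HK2, which catalyses the first step of the pathway as HK1 does, and PFKM, the muscle-type phosphofructokinase, overlapped between the array sets. The lactate dehydrogenases differed little: LDHA split by under 0.01 and LDHB overlapped.

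**Figure D4:**
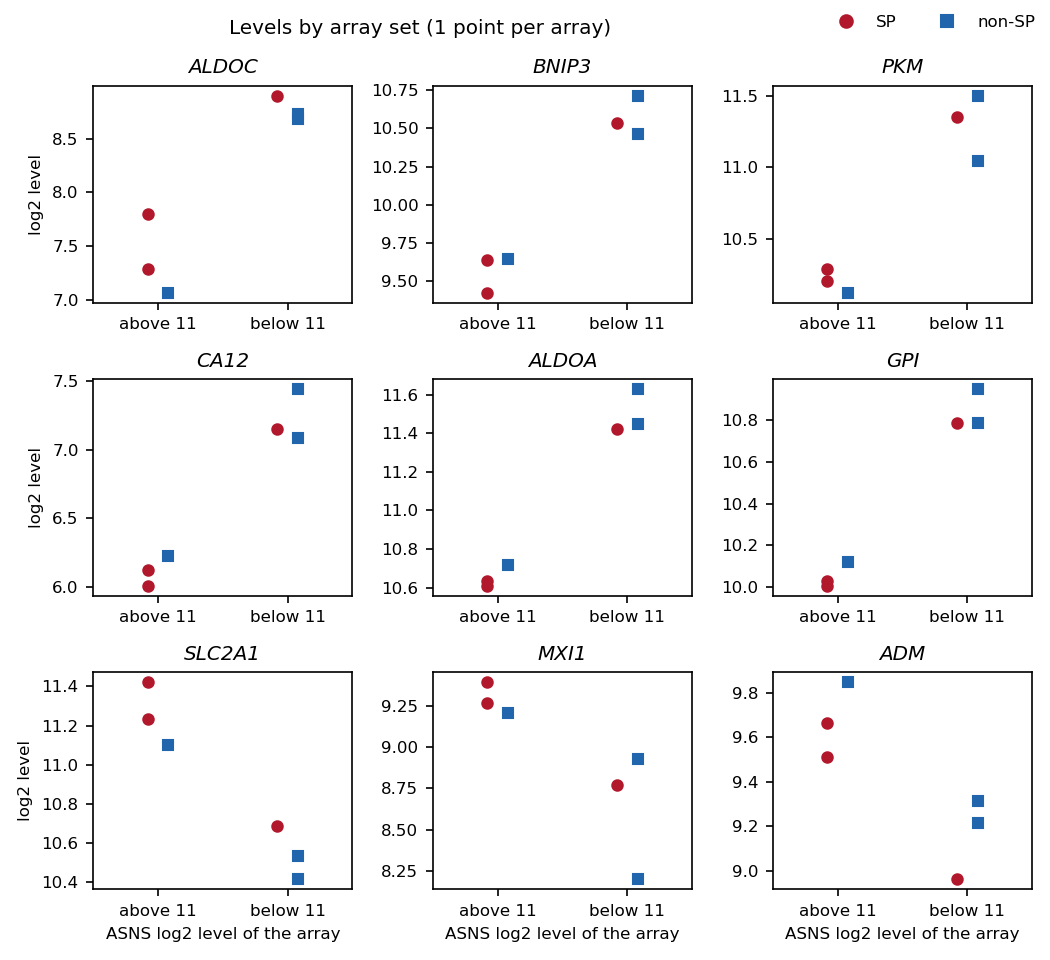
Log2 level of 9 genes on the ASNS-high arrays (left in each panel) and the ASNS-low arrays (right), 1 point per array, circles for SP and squares for non-SP; the vertical axes differ between panels and do not start at 0. ALDOC, BNIP3, PKM, CA12, ALDOA and GPI are lower and SLC2A1, MXI1 and ADM are higher on all 3 ASNS-high arrays.

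The carriers and flux regulators did not share 1 direction. SLC2A1, the basal glucose carrier, was among the 3 genes higher on the ASNS-high arrays, with log2 levels of 11.23, 11.42 and 11.10 on SP 2, SP 3 and non-SP 2 against 10.69, 10.53 and 10.41 on SP 1, non-SP 1 and non-SP 3. Its gap was 0.41, or 1.33-fold, in the direction opposite to the 13 enzymes above. The second SLC2A1 probe set overlapped. PFKFB3, which makes the activator of phosphofructokinase, had 10.72, 10.69 and 10.56 on the ASNS-high arrays and 11.30, 11.06 and 10.96 on the ASNS-low arrays. PFKFB4, a related enzyme, was lower too, with a gap of 0.23, though its second probe set overlapped. PDK1, which inhibits pyruvate dehydrogenase, overlapped in the probe set used. Another PDK1 probe set was lower on all ASNS-high arrays, with a gap of 0.22.

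HIF targets outside glycolysis split in both directions, with 6 of 15 lower and 2 higher on all ASNS-high arrays (53.3% together). Over all genes 13.7% were lower and 13.1% higher. Among genes above the median level these shares were 19% and 20.3%. CA12, a membrane carbonic anhydrase, had log2 levels of 6.13, 6.01 and 6.23 on SP 2, SP 3 and non-SP 2, against 7.15, 7.44 and 7.08 on SP 1, non-SP 1 and non-SP 3. The CA12 gap was 0.85, or 1.81-fold, and 5 of its 7 probe sets split in this direction. BNIP3, a mitophagy receptor, had 9.64, 9.43 and 9.65 on the ASNS-high arrays and 10.53, 10.46 and 10.71 on the ASNS-low arrays, a gap of 0.81 that its second probe set shared in direction. PLOD2, a collagen lysyl hydroxylase, had a gap of 0.56 with 8.99, 9.12 and 9.05 against 9.80, 9.88 and 9.68. P4HA1 had a gap of 0.24, ANKRD37 of 0.10 and ZNF395 of 0.09. MXI1 was higher, with 9.27, 9.39 and 9.21 on the ASNS-high arrays and 8.77, 8.20 and 8.93 on the ASNS-low arrays, and the peptide hormone gene ADM had a gap of 0.20 in the same direction. EGLN1 had 10.24, 10.34 and 10.18 on the ASNS-high arrays and 10.85, 10.77 and 10.76 on the ASNS-low arrays, while HIF1A and EPAS1 overlapped. Of the promoter windows of the 23 lower genes, 27 of 36 held a HIF core motif (75%), as did 4 of 5 windows of the 3 higher genes (80%), against 16 of 25 for genes whose array sets overlapped (64%). At least 2 matches stood in 36.1% of the windows of the lower genes and 40% of those of the higher genes (2 of 5). The share was 28% for genes whose array sets overlapped and 23.1% of all windows. For ACGTG alone the shares were 47.2% (lower), 20% (higher), 36% (overlapping) and 21.4% (all windows).

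Other genes of the same pathways did not show the enzymes' direction as a block. Of 30 measured further genes of glycolysis and pyruvate entry into mitochondria, 5 were lower and 4 higher on all ASNS-high arrays. Together these were 30%, near the 26.9% of all genes (13.7% lower and 13.1% higher). With only the 18 brighter than the median level kept, 5 were lower and 2 higher, against 19% and 20.3% of all genes above it. The count of higher genes thus leaned on dim ones. SLC2A10 had a mean of 2.02, exceeded the negative controls on 0 arrays and had a gap of 0.014. SLC2A8 had a mean of 6.17 and a gap of 0.04. Of the 30, 0 passed the test of SP against non-SP, against 0.00506% of all genes. By unadjusted p the first were PGAM2, the muscle mutase (SP minus non-SP -0.55, SE 0.16, limma adjusted p = 0.6), TIGAR, a fructose bisphosphatase (0.49, SE 0.21), ENO3, the muscle enolase (-0.25, SE 0.12), and PDK3 (-0.35, SE 0.18). Of 14 pentose phosphate, glycogen and side branch genes 4 were lower and 6 higher on the ASNS-high arrays (71.4% together). Of the 14, 13 lay above the median level, where 39.4% of all genes split. The glycogen phosphorylase PYGB differed by 0.64 (SE 0.33) between SP and non-SP cells and had a gap of 0.47 upwards. Of 13 genes of the HIF machinery 2 were lower and 5 higher on all ASNS-high arrays (53.8% together). SP and non-SP groups did not overlap for 3 of the 13 (23.1%), against 11.9% of all genes. Of these, EGLN2, the remaining prolyl hydroxylase, was higher in SP cells (0.29, SE 0.16), while VHL (-0.23, SE 0.14) and CUL2, the cullin of the VHL ligase (-0.20, SE 0.12), were lower. ELOB, another subunit of that ligase, differed by -0.26 (SE 0.14) with groups that overlapped.

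Of 28 measured further HIF targets, 0 passed the test of SP against non-SP, against 0.00506% of all genes. At an unadjusted p under 0.05 there were 4 (14.3%), against 6.78% of all genes. SLC6A8, the creatine carrier, had log2 levels of 7.32, 7.002 and 6.96 on SP arrays and 7.95, 8.39 and 8.12 on non-SP arrays. SP values were all lower, with a difference of -1.06 (SE 0.17, limma adjusted p = 0.192). HILPDA, which coats lipid droplets, ran the other way, with 10.15, 9.53 and 9.74 on SP arrays and 8.95, 8.32 and 9.20 on non-SP arrays (difference 0.99, SE 0.27, limma adjusted p = 0.554). The GTPase gene RAB20 differed by 0.67 (SE 0.24), and DDIT4, which restrains mTORC1, by 0.37 (SE 0.12). The groups of these 4 genes did not overlap (14.3% of the 28, against 11.9% of all genes). Across the array sets 5 of the 28 were lower and 10 higher on all ASNS-high arrays (53.6% together), against 13.7% and 13.1% of all genes. Among the 20 above the median level, 5 were lower and 6 higher, against 19% and 20.3% of all genes above it. Chosen after their values were seen, VEGFA and STC2, which ATF4 is also known to induce, had gaps of 1.05 and 1.48 upwards, and the chemokine receptor CXCR4 had a gap of 1.05 downwards.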

How the data were processed

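RNA of 3 SP and 3 non-SP samples was measured on 1 array each. The deposited table gives a log2 level for each probe set; R 2.8.1, affy and RMA are named per the submitters' processing notes, and RMA's shared distribution hides any global change in RNA content and compresses differences near background. The labels' protocols name an amplification kit for small RNA inputs after the sort and do not give the amount used. Precision is set by having 3 arrays a group.

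Of 54613 probe sets other than controls, 41091 carried 1 gene symbol in the platform annotation (1801 several, 11721 none), matched through Entrez ID to RefSeq of GRCh38.p14 for 41037, with 0 symbols changed. Each gene was read from its probe set of highest average level across the 6 arrays (19775 genes). SP minus non-SP was fitted over all genes with limma 3.58.1 in R 4.3.3 (default prior, no block, two-sided, Benjamini-Hochberg, threshold 0.05). On simulated data the fit recovered 55.5%, 92.8% and 99.1% of genes changed by 1, 2 and 4 log2 units (SP minus non-SP, 19775 genes). Each of 5 simulations changed 200 genes and drew the noise of each gene separately, without array sets. The real arrays hold that split, so these rates need not hold for them, and the sizes missed there are not known. Array sets (ASNS above or below 11) were described without a test. Negative controls were the 3 TrpnX probe sets. Members, lists and the array sets were chosen with earlier results of these data known. Genes given in full were up to 12 by p, up to 12 by gap, and HIF1A, EPAS1, GAPDH, LDHA and SLC2A1; of other lists up to 4 by p. The 6 probe sets shared by several genes were left out. Tables were handled in Python 3.11.15 with pandas 2.3.3, exact tests run with scipy 1.17.1 and figures drawn with matplotlib 3.10.9. Alternatives were a replicate block, other probe set summaries, cyclic loess, array weights, leaving out dim genes, centring arrays on their medians, an intensity trend, the array set as a block, and each array left out.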

Additional observations from a re-analysis of the deposited data

How the results depend on the processing

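In all 15 alternatives 0 listed genes passed the test of SP against non-SP (smallest adjusted p between 0.168 and 0.922 by setting). Over all genes, 3 passed with the replicate block (LINC00518, RUNDC3B, SFRP1), and the list's median difference was again -0.07. Deviations of same-numbered arrays correlated at 0.45, 0.38 and -0.21. These values followed the array sets, since SP 1 and non-SP 3 correlated at 0.30 and SP 3 and non-SP 2 at 0.40. They cannot tell if the numbers pair the samples. The count over all genes was 0 when probe sets of a gene were averaged and 0 with only genes above the median level. It was 12 with array weights and 5 with the array set as a block (LINC00518, ABCB1, ALDH1A3, FOXD1, SLC10A4). With each array left out it was 1 to 2. The list's median difference ranged from -0.20 (array weights) to -0.01 (array set as a block). Listed genes with array sets that did not overlap numbered 24 to 29 of 41 under other scalings and probe set means.

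Of 24 genes described in full, 18 kept the sign of SP minus non-SP in each alternative run for them. Among them were KDM3A, WSB1, ZNF395, SLC2A1 and EPAS1 in 15, and EGLN3 and ANGPTL4 in 14, since both lie below the median level and drop out of that filter. The replicate block, the level filter, each probe set on its own and the intensity trend leave the difference itself unchanged, so they could not turn a sign. For KDM3A, EGLN3 and ANGPTL4, whose groups do not overlap, leaving out an array, array weights and the array set as a block could not either. The sign turned for ALDOC (0.33), PKM (0.10), PLOD2 (0.014), EGLN1 (0.10) and GAPDH (0.12) with the array set as a block, for PKM (0.38) with the mean of its probe sets, and for LDHA (-0.057) with array weights. With 1 array left out, differences ranged from -0.71 to 0.19 for ALDOC, -0.66 to 0.034 for PKM, -0.29 to 0.024 for EGLN1, -0.24 to 0.058 for GAPDH and -0.043 to 0.063 for LDHA. Beyond fewer arrays or genes, the causes were not tested. Differences near the negative controls, as for SLC2A3, are limited by background.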
